A study of Mus musculus with 9 samples.

Results

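The genes described are 9 genes of haem metabolism, Alas1, Alas2, Alad, Uros, Urod, Cpox, Ppox, Fech and Hmox1, taken by name from a table of 54532 mouse genes. The first 8 encode enzymes of haem synthesis, and Hmox1 encodes haem oxygenase 1, which breaks haem down. RNA was sequenced from mouse cells that the sample titles call spermatocytes, which are male germ cells, with a labelled time of PD 35. There were 3 ClpX conditional knockout (cKO) libraries, 3 ClpP cKO libraries and 3 control libraries labelled WT. The deletion was driven by Stra8-Cre, which acts in germ cells from the spermatogonial stage. Whether the controls carried floxed alleles or Cre, how cells were isolated, and whether the replicates came from separate animals are not stated in the labels, so the spread behind each p-value is that of the libraries and may be technical.

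Haem is an iron-containing ring that serves as the cofactor of haemoglobin, of cytochromes in the respiratory chain and of the P450 enzymes that make steroids. Its synthesis starts in mitochondria, where aminolevulinate synthase joins glycine and succinyl-CoA, passes through the cytosol from aminolevulinate dehydratase to uroporphyrinogen decarboxylase, and returns to mitochondria for the last steps, which end with iron insertion by ferrochelatase. ALAS1 is the synthase of most tissues and ALAS2 that of erythroid cells. ClpX, an unfoldase of the mitochondrial matrix, helps the synthase take up its cofactor in yeast and in erythroid cells of vertebrates, and with the protease ClpP it degrades ALAS1 in human cells. Those actions are on the protein, whereas the values below are of RNA.

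The libraries held 14334436 to 17021685 gene reads. Clpx was at 15.6, 11.3 and 13.2 FPKM (reads per kilobase of gene, scaled to library depth) in ClpX cKO, 40.3, 36.2 and 36.0 in ClpP cKO, and 59.3, 55.7 and 54.7 in the controls. Clpp was at 12.8, 12.5 and 14.1 FPKM in ClpX cKO, 5.16, 6.15 and 3.69 in ClpP cKO, and 9.36, 8.46 and 9.36 in the controls. Within the groups, ClpX cKO 1 and Control 3 stood apart. The chi-square of read counts per degree of freedom was 21.7 and 25.1 for ClpX cKO 1 with the other ClpX cKO libraries and 8.59 between those, and it was 15.2 and 16.4 for Control 3 with the other controls and 3.96 between those. The summed FPKM of 10 elongating spermatid markers was 1605 to 2479 in ClpX cKO, 4539 to 5421 in ClpP cKO and 7871 to 17448 in the controls, where Control 3 was the lowest. The sum of 12 Sertoli cell markers was 985 to 1392 in ClpX cKO, 772 to 870 in ClpP cKO and 536 to 560 in the controls. For 9 Leydig cell markers it was 402 to 631 in ClpX cKO, 412 to 601 in ClpP cKO and 244 to 443 in the controls. These groups overlapped, and Control 3 was the lowest control, as it was for Alas1, Alas2, Alad and Hmox1. The Leydig markers Cyp17a1 and Insl3 had means of 167 and 112 FPKM, so the RNA was not of germ cells alone. The sum of 11 pachytene and diplotene markers was 2059 to 2671 in ClpX cKO, 2781 to 2860 in ClpP cKO and 3657 to 3846 in the controls. The highest of them, Ldhc and Hspa2, had means of 1531 and 522 FPKM and weigh most in it. In the limma test described below, 6 of the 11 fell in ClpX cKO at an adjusted p under 0.05, and Sycp3 rose. Sycp1, Spo11, Piwil1 and Mybl1 did not pass, so the sum does not speak for each marker. The sum of 11 spermatogonial markers was 122.6 to 149 in ClpX cKO, 107 to 122 in ClpP cKO and 79.2 to 86.8 in the controls. Genes of the mitochondrial genome took 2.23 to 2.94% of gene reads in ClpX cKO, 1.48 to 1.63% in ClpP cKO and 0.833 to 0.956% in the controls. The part of these shifts in the changes below was not tested.

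In ClpX cKO, most of the pathway after its first step rose, the transcript of the first enzyme Alas1 was not called, and its erythroid counterpart Alas2 fell. Of the 9 genes, 6 rose (Alad, Urod, Cpox, Ppox, Fech and Hmox1), 1 fell (Alas2) and 2 were not called (Alas1 and Uros), at a Benjamini-Hochberg adjusted p under 0.05 in limma on log2(FPKM + 1). Of all 17266 genes tested, 65.6% were called in ClpX cKO, 32.1% as higher and 33.5% as lower, and 40.1% of the 12827 tested protein-coding genes were higher. The median log2 change of the 9 genes was 0.46, against 0.00 for all tested genes and 0.11 for the protein-coding ones. Of the 5 mitochondrial enzymes 3 rose and 1 fell, and of the 3 cytosolic enzymes 2 rose. For 6 of the 9 genes all ClpX cKO values lay above all control values, which held for 34.8% of tested genes. In bulk RNA, fewer cells of a type and less RNA per cell cannot be told apart. The 6 increases were called under every alternative in which the gene was tested, and the decrease of Alas2 was not.

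**Figure D1:**
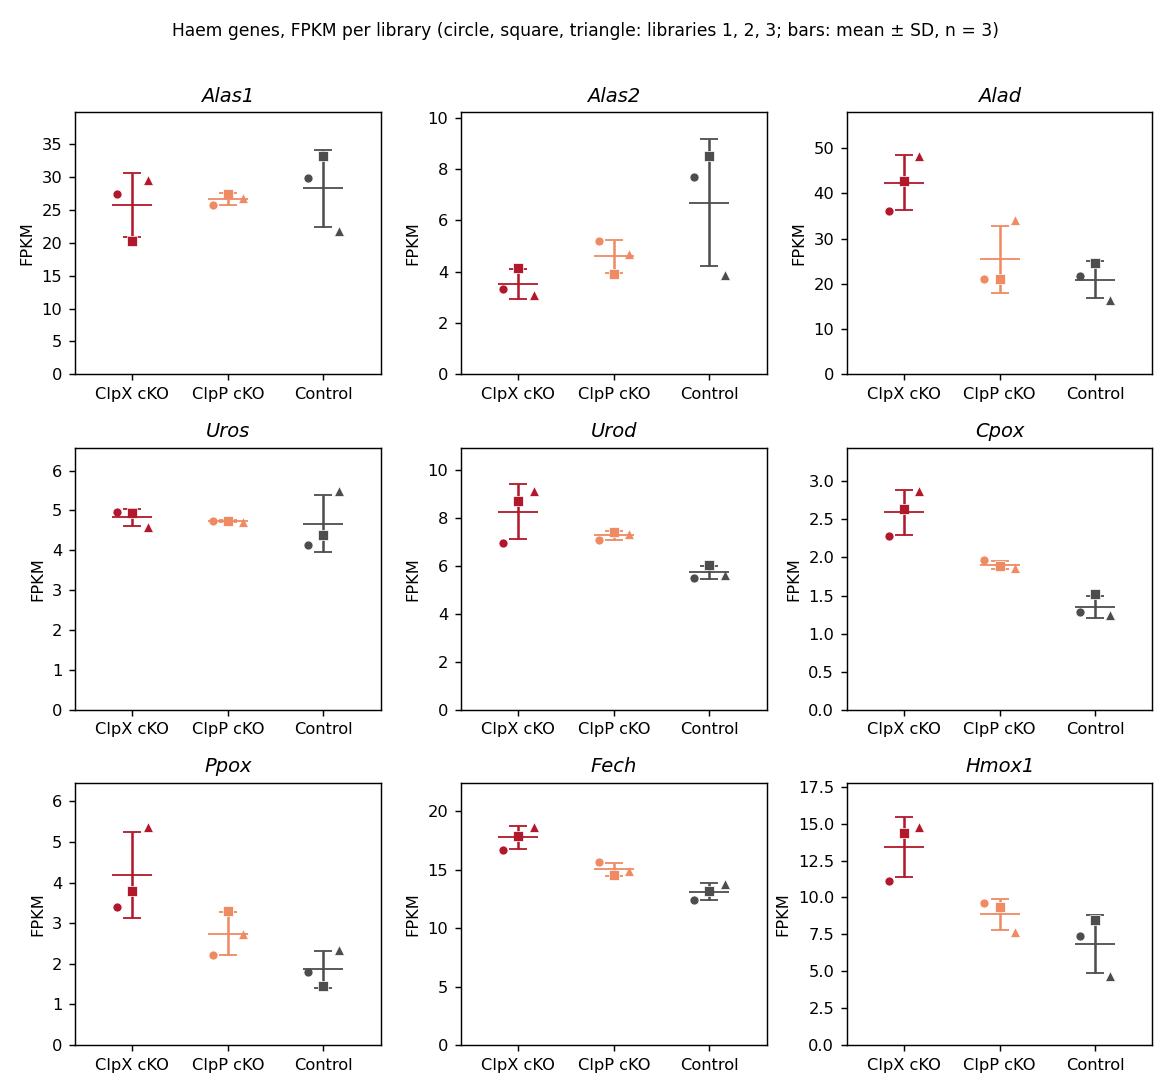
FPKM of the 9 haem genes (vertical axes, each from 0) in ClpX cKO, ClpP cKO and control libraries (horizontal axes); points are libraries and bars are mean ± SD, n = 3. The ClpX cKO points lie above all control points for Alad, Urod, Cpox, Ppox, Fech and Hmox1, and the groups overlap for Alas1, Alas2 and Uros.

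The promoters of Alad, Urod, Cpox and Ppox, which rose in ClpX cKO, and that of Alas1, which was not called, are printed to show how they differ in sequence. Promoter windows of 300 bases, 250 before a RefSeq start and 50 after it, came from a prepared set of promoters (GRCm38.p6). That set held 7 of the 9 genes, all but Fech and Hmox1. Where a gene had several starts, the start nearest to that of the deposited table was used. That start lay 700 bases inside the table's gene for Alas1 and 777 for Uros, so these windows lie within the gene as the table draws it, and it lay within 84 bases of the table's start for the other 5. Each is written 5′ to 3′ on the strand of the gene, with matches in capitals to the NRF1 palindrome (GCGCA, any base, then GCGC), the E-box (CACGTG) and the CCAAT box (CCAAT), searched on both strands. They lie at chr9:106247905-106248204 (minus strand) for Alas1, chr4:62519860-62520159 (minus) for Alad, chr4:116994364-116994663 (minus) for Urod, chr16:58669958-58670257 (plus) for Cpox and chr1:171281137-171281436 (minus) for Ppox.
Alas1: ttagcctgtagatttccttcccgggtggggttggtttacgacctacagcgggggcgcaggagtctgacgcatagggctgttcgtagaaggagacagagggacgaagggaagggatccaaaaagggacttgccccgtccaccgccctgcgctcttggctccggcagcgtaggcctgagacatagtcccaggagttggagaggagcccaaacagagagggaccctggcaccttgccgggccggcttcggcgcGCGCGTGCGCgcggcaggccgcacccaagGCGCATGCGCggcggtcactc
Alad: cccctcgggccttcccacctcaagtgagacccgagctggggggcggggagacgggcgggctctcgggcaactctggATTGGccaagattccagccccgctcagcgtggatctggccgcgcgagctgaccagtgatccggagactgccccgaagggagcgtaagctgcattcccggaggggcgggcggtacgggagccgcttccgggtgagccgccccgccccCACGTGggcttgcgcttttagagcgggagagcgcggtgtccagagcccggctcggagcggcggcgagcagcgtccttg
Urod: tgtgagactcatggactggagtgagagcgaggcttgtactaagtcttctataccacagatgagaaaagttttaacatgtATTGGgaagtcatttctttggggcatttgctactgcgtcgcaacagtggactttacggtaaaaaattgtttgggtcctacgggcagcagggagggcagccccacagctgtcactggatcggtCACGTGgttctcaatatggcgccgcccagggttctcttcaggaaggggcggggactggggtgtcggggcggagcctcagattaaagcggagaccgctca
Cpox: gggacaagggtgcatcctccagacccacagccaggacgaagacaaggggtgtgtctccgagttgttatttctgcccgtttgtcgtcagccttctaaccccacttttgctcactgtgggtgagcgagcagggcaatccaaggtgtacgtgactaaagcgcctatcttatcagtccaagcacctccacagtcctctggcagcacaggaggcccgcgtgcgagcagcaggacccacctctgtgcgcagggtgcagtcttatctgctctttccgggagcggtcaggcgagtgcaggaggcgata
Ppox: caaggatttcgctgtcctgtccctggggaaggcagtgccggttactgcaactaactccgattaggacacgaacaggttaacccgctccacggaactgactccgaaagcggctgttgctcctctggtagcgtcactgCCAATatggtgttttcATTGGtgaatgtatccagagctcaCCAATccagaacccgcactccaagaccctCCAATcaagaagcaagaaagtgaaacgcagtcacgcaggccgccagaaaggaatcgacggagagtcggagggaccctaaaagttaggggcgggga
Alas1 held 2 matches, at and after the RefSeq start, to the palindrome of NRF1, a transcription factor of mitochondrial genes, a match found in 4.60% of the 32851 promoters of the table. Uros held 1, and Alad, Urod, Cpox, Ppox and Alas2 held none, as most promoters do. Alas1 and Uros are also the genes whose windows lie 700 and 777 bases inside the table's gene. A link between these matches and the calls was not tested. Alad, Urod and Uros each held 1 E-box, which 7.15% of promoters hold. Alad and Urod each held 1 CCAAT box, which 37.4% hold, while Ppox held 4. Cpox and Alas2 held no match to any of these 3 motifs. The CARE motif of ATF4 (TGATGNAA, in 3.97% of promoters) and the antioxidant response element core (TGACNNNGC, in 12.4%) matched in none of the 7 windows. A match is a description of letters and not a bound site.

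Alas1 (ENSMUSG00000032786, chromosome 9, 106233455 to 106248654, minus strand, GRCm38), the synthase of most tissues, was at 27.5, 20.3 and 29.5 FPKM in ClpX cKO, 25.8, 27.5 and 26.8 in ClpP cKO, and 29.9, 33.2 and 21.9 in the controls. The groups overlapped, and the spread between the controls, from 21.9 to 33.2 FPKM, was wider than the differences of the means. The log2 change in ClpX cKO was -0.13 (SE 0.17, adjusted p = 0.53), with a 95% interval from -0.52 to 0.26. Over the same libraries Clpx was at 0.237 times its control mean. Without ClpX cKO 1 and Control 3 the change of Alas1 was -0.35 (adjusted p = 0.092), and with each library scaled to the total of its gene reads (own totals) it was 0.09, so that neither sign was established. In the annotation 7.53% of the exonic bases of Alas1 are shared with 4930500F10Rik on the opposite strand, and strand use in counting is not stated.

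Alas2 (ENSMUSG00000025270, chromosome X, 150547375 to 150570638, plus strand), the erythroid synthase, was at 3.31, 4.16 and 3.07 FPKM in ClpX cKO, 5.18, 3.90 and 4.69 in ClpP cKO, and 7.67, 8.50 and 3.88 in the controls. Control 3 lay within the range of the knockouts, at less than either of the other controls. The gene fell by 0.72 in ClpX cKO (log2, SE 0.24, adjusted p = 0.025), and its mean FPKM was 0.526 times that of the controls. This call was lost without ClpX cKO 1 (-0.69, adjusted p = 0.059), ClpX cKO 3 (-0.65, adjusted p = 0.079), Control 1 (-0.60, adjusted p = 0.084) or Control 2 (-0.53, adjusted p = 0.086), with no filter on low values (-0.72, adjusted p = 0.057), and under scaling by own totals (-0.53, adjusted p = 0.059). Without ClpX cKO 1 and Control 3 it was -0.99 (adjusted p = 0.0015). Alas2 supplied 10.7, 17.0 and 9.42% of the summed FPKM of both synthases in ClpX cKO, 16.7, 12.4 and 14.9% in ClpP cKO and 20.4, 20.4 and 15.1% in the controls.

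Erythroid cells are the classical source of Alas2 RNA, so erythroid markers are given beside it. The summed FPKM of the erythroid markers was 60.1, 21.6 and 36.0 in ClpX cKO, 19.7, 18.7 and 46.4 in ClpP cKO and 44.4, 23.6 and 25.2 in the controls, with overlap of all groups. Of the 8 markers in the table none was at 0 in every library, and 4 had a mean under 1 FPKM. None of the 4 tested erythroid markers was called in ClpX cKO by limma, and 1 (Klf1) was under 0.05 at an unadjusted p. Globins made up most of that sum. Klf1, the erythroid transcription factor, was at 0.427, 0.261 and 0.536 FPKM in ClpX cKO, 0.341, 2.02 and 1.34 in ClpP cKO, and 2.83, 2.95 and 0.479 in the controls, with Control 3 lowest of the controls as for Alas2. Its change in ClpX cKO was -1.01 (SE 0.41, adjusted p = 0.057) and was not called. The summed elongating spermatid markers, like Alas2, were lowest of the controls in Control 3 (7871, against 17448 and 16514 in the others), and the part of these cells and of erythroid cells in the change of Alas2 was not tested. Of the exonic bases of Alas2, 12.9% are shared with Apex2 on the opposite strand, whose mean over the 9 libraries was 0.446 FPKM.

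Among the cytosolic enzymes, Alad (ENSMUSG00000028393, chromosome 4, 62509169 to 62519918, minus strand) had the largest fold of FPKM + 1 of the 9 genes. The dehydratase it encodes joins a pair of aminolevulinate molecules into porphobilinogen. It was at 36.1, 42.7 and 48.2 FPKM in ClpX cKO, 21.1, 21.2 and 34.0 in ClpP cKO, and 21.8, 24.6 and 16.4 in the controls. All 3 ClpX cKO values lay above every other library, and ClpP cKO 3 lay apart from its group towards them. The mean in ClpX cKO was 2.02 times that of the controls (log2 change of FPKM + 1 0.99, SE 0.21, adjusted p = 0.0034). The ratio of Alad to Alas1 FPKM was 1.31, 2.11 and 1.63 in ClpX cKO, 0.818, 0.770 and 1.27 in ClpP cKO and 0.728, 0.741 and 0.751 in the controls, so that Alad exceeded Alas1 in all 3 ClpX cKO libraries, in ClpP cKO 3 and in no control.

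Uros (ENSMUSG00000030979, chromosome 7, 133686243 to 133710072, minus strand), whose enzyme closes the porphyrin ring, was at 4.96, 4.94 and 4.59 FPKM in ClpX cKO, 4.75, 4.74 and 4.70 in ClpP cKO, and 4.12, 4.39 and 5.48 in the controls. All knockout values lay within the range of the controls, and the log2 change in ClpX cKO was 0.05 (SE 0.09, adjusted p = 0.67), with a 95% interval from -0.17 to 0.26. Urod (ENSMUSG00000028684, chromosome 4, 116989965 to 116994413, minus strand), whose enzyme removes the acetate side chains' carboxyl groups, was at 6.96, 8.71 and 9.09 FPKM in ClpX cKO, 7.07, 7.39 and 7.32 in ClpP cKO, and 5.50, 6.04 and 5.61 in the controls. Both knockouts lay above all controls. Urod rose by 0.46 in ClpX cKO (SE 0.10, adjusted p = 0.0032), to 1.44 times the control mean.

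The enzymes of the last mitochondrial steps all rose in ClpX cKO. Cpox (ENSMUSG00000022742, chromosome 16, 58670292 to 58717636, plus strand), which turns coproporphyrinogen into protoporphyrinogen, was at 2.28, 2.63 and 2.87 FPKM in ClpX cKO, 1.97, 1.88 and 1.86 in ClpP cKO, and 1.28, 1.51 and 1.24 in the controls. The 3 groups did not overlap at all, with ClpP cKO between the others. The mean in ClpX cKO was 1.93 times that of the controls (log2 change of FPKM + 1 0.61, SE 0.10, adjusted p = 9.4e-04). On recovered reads, where no pseudocount of 1 FPKM damps a gene of this low level, limma voom gave 0.94 (adjusted p = 2.4e-04).

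Ppox (ENSMUSG00000062729, chromosome 1, 171275990 to 171281186, minus strand), the oxidase that makes protoporphyrin, was at 3.39, 3.78 and 5.37 FPKM in ClpX cKO, 2.21, 3.29 and 2.73 in ClpP cKO, and 1.79, 1.45 and 2.34 in the controls. The ClpX cKO values lay above all others, and ClpP cKO overlapped the controls. The mean in ClpX cKO was 2.25 times that of the controls, the largest ratio of mean FPKM among the 9 genes (log2 change of FPKM + 1 0.85, SE 0.18, adjusted p = 0.0032). Of its exonic bases 17.5% are shared with B4galt3 on the opposite strand, which also rose in ClpX cKO (0.39, SE 0.13, adjusted p = 0.025), so part of the Ppox reads may belong to that gene.

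Fech (ENSMUSG00000024588, chromosome 18, 64456550 to 64489066, minus strand), which inserts the iron, was at 16.7, 17.9 and 18.7 FPKM in ClpX cKO, 15.7, 14.6 and 14.9 in ClpP cKO, and 12.4, 13.2 and 13.8 in the controls. As with Cpox, the 3 groups were fully separated, with ClpP cKO in the middle. It rose by 0.41 in ClpX cKO (SE 0.07, adjusted p = 0.0011), the smallest of the called increases, to 1.35 times the control mean, and by 0.62 under scaling by own totals. The deposited length of Fech was 2901 bases, against 13838 exonic bases in the annotation used for overlaps, so its level rests on a shorter gene model.

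**Figure D2:**
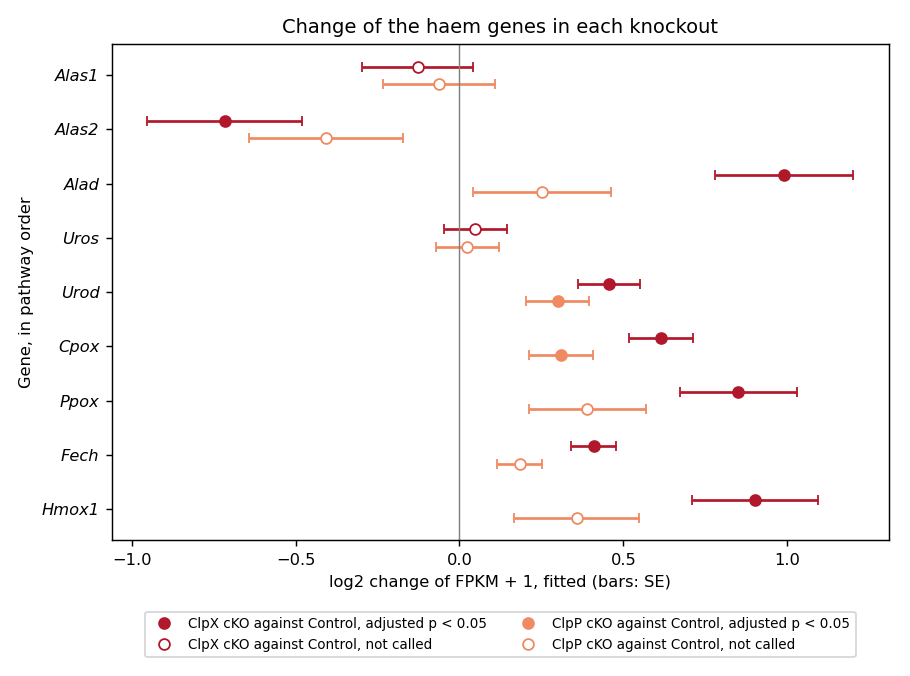
Fitted log2 change of FPKM + 1 (horizontal axis; bars are SE) of the 9 genes in pathway order (vertical axis), for ClpX cKO against control and ClpP cKO against control; filled points have an adjusted p under 0.05. In ClpX cKO the filled points run from -0.72 for Alas2 to 0.99 for Alad, and in ClpP cKO Urod and Cpox are filled.

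The gene of haem breakdown rose as well. Hmox1 (ENSMUSG00000005413, chromosome 8, 75093621 to 75100589, plus strand), the inducible haem oxygenase, was at 11.1, 14.4 and 14.8 FPKM in ClpX cKO, 9.60, 9.36 and 7.67 in ClpP cKO, and 7.38, 8.49 and 4.69 in the controls. ClpX cKO lay above all other libraries, ClpP cKO overlapped the controls, and Control 3 was the lowest of the 9. It rose by 0.90 in ClpX cKO (SE 0.19, adjusted p = 0.0034), to 1.96 times the control mean, and by 0.81 without ClpX cKO 1 and Control 3 (adjusted p = 0.0011).

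Hmox2, the constitutive haem oxygenase, fell. It was at 57.4, 41.7 and 42.2 FPKM in ClpX cKO, 74.8, 61.1 and 65.4 in ClpP cKO, and 134.8, 136 and 95.6 in the controls. It fell by 1.35 in ClpX cKO (log2, SE 0.17, adjusted p = 4.7e-04) and by 0.84 in ClpP cKO (SE 0.17, adjusted p = 0.0099), and under quantile normalization the changes were -0.86 and -0.44. Hmox1 made up 16.2, 25.6 and 26.0% of the summed FPKM of both oxygenases in ClpX cKO, 11.4, 13.3 and 10.5% in ClpP cKO and 5.19, 5.86 and 4.68% in the controls. Hmox2 thus remained the more abundant transcript in all 9 libraries.

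Macrophages, which recycle haem, express Hmox1, and their markers moved in the same libraries. The summed FPKM of 11 macrophage and immune markers was 90.0 to 109.6 in ClpX cKO, 60.4 to 86.3 in ClpP cKO and 48.0 to 55.4 in the controls. All 9 tested members of that list rose in ClpX cKO (median log2 change 0.77). None of the 11 was at 0 in every library, and Ptprc and Cd163 had means under 1 FPKM. The rise was not particular to this list. All 11 tested Sertoli markers rose in ClpX cKO (median 1.03), as did 10 of 11 spermatogonial markers (0.65) and 6 of 8 peritubular and stromal markers (0.70). Unlike Hmox1, Cd74 of the macrophage list had a higher mean in ClpP cKO (8.44 FPKM) than in ClpX cKO (5.43). By the root mean square difference of centred log2(FPKM + 1) over the 9 libraries, the gene nearest to Hmox1 among 12826 protein-coding genes was C1qa, a complement gene of macrophages, at 0.12. Efnb1 followed at 0.12 and Nfkb2 at 0.14. The part of these cells in the change of Hmox1 was not tested.

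**Figure D3:**
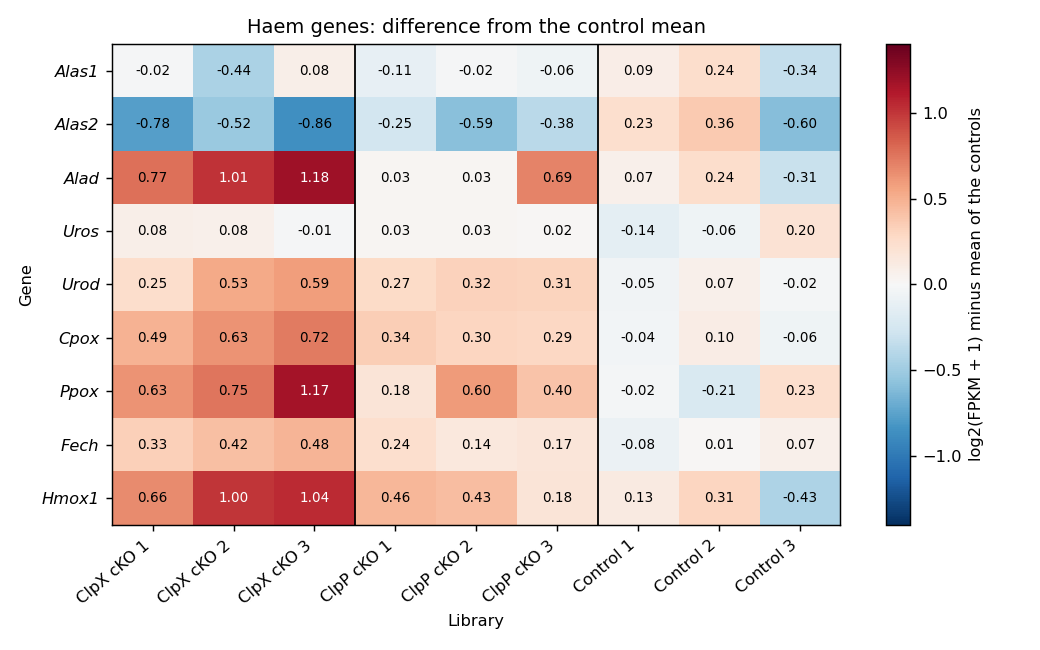
Difference of log2(FPKM + 1) from the mean of the controls (colour and printed value) for the 9 genes (rows) in each library (columns). Alad, Urod, Cpox, Ppox, Fech and Hmox1 are above 0 in all knockout libraries, and Control 3 is below the control mean for Alas1 (-0.34), Alas2 (-0.60), Alad (-0.31) and Hmox1 (-0.43).

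In ClpP cKO fewer of the genes were called. Urod rose by 0.30 (log2, SE 0.10, adjusted p = 0.034) and Cpox by 0.31 (SE 0.10, adjusted p = 0.033), and the other 7 were not called, while 44.7% of all tested genes were called, 20.7% as higher and 24% as lower, and 25.8% of protein-coding genes were higher. The median log2 change of the 9 genes was 0.25, against 0.01 for all tested genes and 0.08 for the protein-coding ones. All ClpP cKO values lay above all control values for Urod, Cpox and Fech, which held for 31.2% of tested genes, and Fech missed the threshold (0.18, SE 0.07, adjusted p = 0.056). The changes of Alas1 (-0.06, SE 0.17) and Uros (0.02, SE 0.09) were within their errors. Those of Alas2 (-0.41, SE 0.24), Alad (0.25, SE 0.21), Ppox (0.39, SE 0.18) and Hmox1 (0.36, SE 0.19) were not called, with adjusted p from 0.10 to 0.34.

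The calls in ClpP cKO depended on single libraries. The call of Urod was lost without any of the 6 libraries compared (0.28 to 0.33), and that of Cpox without any of them but Control 2 (0.28 to 0.32). Without Control 3 Alas2 was called as lower (-0.71, adjusted p = 0.014), and without ClpX cKO 1 Fech was called as higher (0.18, adjusted p = 0.035). Without ClpX cKO 1 and Control 3 together, 4 genes were called, with Urod, Ppox and Fech higher and Alas2 lower, beside 47.2% of all genes called and 21.2% higher. Under scaling by own totals, 5 were called as higher (Urod, Cpox, Ppox, Fech and Hmox1) beside 34.7% of all genes higher. That scaling placed the median of all genes at 0.18 in ClpX cKO and 0.16 in ClpP cKO, and the median of the 9 haem genes at 0.65 in ClpX cKO and 0.42 in ClpP cKO.

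Set directly against ClpP cKO, ClpX cKO gave no called haem gene in limma, beside 0.104% of all genes, and limma voom on recovered reads gave 0 of 9 as well, beside 0.232%. At an unadjusted p under 0.05, 5 of the 9 differed (Alad, Cpox, Ppox, Fech and Hmox1), all higher in ClpX cKO, beside 13% of all tested genes that were higher at that level. The same 5 had all ClpX cKO values above all ClpP cKO values, which held for 14.9% of tested genes. The largest difference was that of Alad (0.74, SE 0.21, adjusted p = 0.094, 95% interval from 0.26 to 1.22). Hmox1 differed by 0.54 (SE 0.19, adjusted p = 0.12) and Ppox by 0.46 (SE 0.18, adjusted p = 0.14). Without ClpX cKO 1, 27.6% of all genes were called, 11.9% as higher, and 5 of the 9 haem genes were higher (Alad, Urod, Cpox, Fech and Hmox1). Without ClpX cKO 1 and Control 3, Ppox joined them (0.57, adjusted p = 0.048), beside 29.8% of all genes called and 12.6% higher. Both knockouts share their controls, so the likeness of their changes against control is not a result.

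In level, mean FPKM ran up to 42.3 ± 6.08 for Alad in ClpX cKO, 26.7 ± 0.853 for Alas1 in ClpP cKO and 28.3 ± 5.84 for Alas1 in the controls (SD, n = 3 each), and down to 2.59 ± 0.296, 1.90 ± 0.0551 and 1.35 ± 0.146 for Cpox in the same groups. In ClpX cKO the order was Alad, Alas1, Fech, Hmox1, Urod, Uros, Ppox, Alas2 and Cpox, and neighbours overlapped only between Uros and Ppox and between Ppox and Alas2. In ClpP cKO the order was Alas1, Alad, Fech, Hmox1, Urod, Uros, Alas2, Ppox and Cpox, with overlap between Alas1 and Alad and between Uros and Alas2. In the controls it was Alas1, Alad, Fech, Hmox1, Alas2, Urod, Uros, Ppox and Cpox, with overlap between Alas1 and Alad, Hmox1 and Alas2, Alas2 and Urod, and Ppox and Cpox. The genes rested on 126 to 3113 recovered reads per library in ClpX cKO, 146 to 2750 in ClpP cKO and 100 to 3133 in the controls, where Ppox in Control 2 had the fewest.

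Over the 9 libraries Urod, Cpox and Fech followed each other most closely, with root mean square differences of centred log2(FPKM + 1) of 0.09 between Urod and Cpox, 0.09 between Urod and Fech and 0.10 between Cpox and Fech. By the same measure the protein-coding genes nearest to Alas1 were Rnf5 (0.07), Anapc13 (0.10) and Uba1 (0.11), where Alas1 itself varied with an SD of 0.21. Those nearest to Alas2 were Sdc3 (0.07), Otud1 (0.12) and Syce2 (0.13). Alad was nearest to Jsrp1 (0.15), Smpdl3b (0.16) and Rcn1 (0.17), Cpox to Mtpn (0.03), Trappc2 (0.03) and Gng7 (0.04), and Ppox to Rad51ap2 (0.07), Ddah2 (0.08) and Taz (0.08).

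Genes that supply, move, attach or sense haem and iron were described from 5 lists of 43 genes, of which 39 were tested. In ClpX cKO 22 rose, 7 fell and 10 were not called (median 0.35), and in ClpP cKO 17 rose, 5 fell and 17 were not called (median 0.22). In ClpX cKO against ClpP cKO none was called in limma or in voom. Without ClpX cKO 1, 13 of the 39 were called there, beside 27.6% of all genes. The counts against control stand beside 65.6% of all genes called in ClpX cKO, 32.1% as higher and 33.5% as lower. In ClpP cKO 44.7% were called, 20.7% as higher and 24% as lower. Of protein-coding genes 40.1% were higher in ClpX cKO and 25.8% in ClpP cKO, with median changes of 0.11 and 0.08. The 18 genes named below for the smallest adjusted p of their list in ClpX cKO kept those calls without each library.

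Iron genes came first in their medians. Of 6 tested genes of iron uptake and storage 5 rose in ClpX cKO (median 0.64) and 4 in ClpP cKO (median 0.39). Ftl1, the ferritin light chain, was at 37.1, 44.9 and 49.2 FPKM in ClpX cKO, 32.7, 36.5 and 32.8 in ClpP cKO, and 22.6, 23.8 and 17.3 in the controls. Every knockout library lay above every control, and the change was 1.01 in ClpX cKO (SE 0.14, adjusted p = 5.3e-04) and 0.66 in ClpP cKO (SE 0.14, adjusted p = 0.010). Slc11a2, the iron transporter DMT1 (0.79, SE 0.11), Aco1, the iron regulatory protein IRP1 (0.73, SE 0.13), and Tfrc, the transferrin receptor (0.55, SE 0.11), rose in ClpX cKO too. In ClpP cKO their changes were 0.44, 0.41 and 0.37, and these 3 calls were each lost without 3 to 5 of the single libraries. Ireb2, the iron regulatory protein IRP2, was not called in ClpX cKO (-0.07, SE 0.07).

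Carriers of precursors and porphyrins went both ways. Of 10 tested genes 4 rose and 3 fell in ClpX cKO (median 0.13), and 3 rose and 2 fell in ClpP cKO (median 0.13). Both medians lay near those of all tested protein-coding genes (0.11 and 0.08). Slc25a37, mitoferrin 1, which brings iron into mitochondria, was at 3.10, 2.40 and 2.46 FPKM in ClpX cKO, 3.87, 3.59 and 3.92 in ClpP cKO, and 7.02, 8.02 and 4.28 in the controls, a fall of 0.99 in ClpX cKO (SE 0.18, adjusted p = 0.0017) and of 0.60 in ClpP cKO (SE 0.18, adjusted p = 0.030). Both knockouts lay below all controls, and Control 3 was again the lowest control. The ClpP cKO call was lost without 5 of the single libraries. Its relative Slc25a28, mitoferrin 2, was not called in ClpX cKO (0.01, SE 0.07). Abcg2, a porphyrin exporter, fell by 0.87 in ClpX cKO (SE 0.16). Slc25a39, a mitochondrial carrier of glutathione, fell by 0.65 in ClpX cKO (SE 0.07) and by 0.50 in ClpP cKO (SE 0.07), and under quantile normalization these were -0.08 and -0.05 and not called. Fam210b, a protein of erythroid iron supply, rose by 0.94 in ClpX cKO (SE 0.09) and 0.53 in ClpP cKO (SE 0.09). Tmem14c, which moves protoporphyrinogen into the matrix, rose by 0.72 in ClpX cKO (SE 0.18, adjusted p = 0.0083). In ClpP cKO Tmem14c rose by 0.63 (SE 0.18), a call lost without 4 of the single libraries. Slc25a38, the glycine carrier that feeds the first step, was not called in ClpX cKO (-0.02, SE 0.09).

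Of 8 genes of haem breakdown and trafficking, 4 rose and 2 fell in ClpX cKO (median 0.11), and 3 rose and 2 fell in ClpP cKO (median 0.03). The medians of all tested protein-coding genes were 0.11 and 0.08, so as a list these genes did not stand above them. Besides Hmox2, which fell, Slc48a1, which carries haem out of endolysosomes, rose by 0.97 in ClpX cKO (SE 0.11, adjusted p = 4.5e-04) and 0.49 in ClpP cKO (SE 0.11). Blvrb, a biliverdin reductase, rose by 0.85 in ClpX cKO (SE 0.11) and 0.45 in ClpP cKO (SE 0.11), where the call was lost without Control 1, and limma voom gave 1.33 and 0.76. Pgrmc1, a haem-binding membrane protein, rose by 0.74 in ClpX cKO (SE 0.11, and 1.19 under quantile normalization) and by 0.36 in ClpP cKO (SE 0.11, adjusted p = 0.032). Pgrmc2 fell by 0.39 in ClpX cKO (SE 0.08, adjusted p = 0.0025) and by 0.33 in ClpP cKO (SE 0.08), where the call was lost without ClpP cKO 2. The summed Sertoli and macrophage markers were also higher in both knockouts, as given above, and their part in these changes was not tested.

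Of the 3 genes that build haem into respiratory proteins, 2 rose in each knockout. Hccs, the lyase that attaches haem to cytochrome c, was at 3.40, 3.62 and 3.61 FPKM in ClpX cKO, 2.94, 2.58 and 2.55 in ClpP cKO, and 1.79, 1.39 and 2.08 in the controls, and all 3 groups were separate. It rose by 0.73 in ClpX cKO (SE 0.11) and 0.43 in ClpP cKO (SE 0.11). Cox15, which makes haem a for cytochrome oxidase, rose by 0.54 in ClpX cKO (SE 0.11) and 0.33 in ClpP cKO (SE 0.11), and in ClpP cKO the call was lost without any 1 of the 6 libraries compared. Cox10, which acts before it, was not called in ClpX cKO (0.19, SE 0.12).

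Among 12 genes of haem sensing and of the BACH1 and NRF2 axis, 7 rose and 2 fell in ClpX cKO (median 0.32), and 5 rose and 1 fell in ClpP cKO (median 0.18). Bach1, the haem-binding repressor of Hmox1, was at 1.71, 2.27 and 2.26 FPKM in ClpX cKO, 1.47, 1.73 and 1.32 in ClpP cKO, and 0.972, 1.08 and 0.902 in the controls, and rose by 0.63 in ClpX cKO (SE 0.12, adjusted p = 0.0018) and 0.33 in ClpP cKO (SE 0.12, adjusted p = 0.046), where the call was lost without 8 of the 9 single libraries, all but ClpX cKO 1. On recovered reads limma voom gave 1.06 in ClpX cKO and 0.60 in ClpP cKO. Mafg, its dimer partner, rose by 1.02 in ClpX cKO (SE 0.10) and 0.52 in ClpP cKO (SE 0.10). The glutathione synthesis genes Gclc and Gclm, which NRF2 induces, rose by 0.53 (SE 0.07) and 0.51 (SE 0.09) in ClpX cKO and by 0.49 (SE 0.07) and 0.39 (SE 0.09) in ClpP cKO, where that of Gclm was not called without ClpP cKO 3. Keap1, the inhibitor of NRF2, fell by 0.43 in ClpX cKO (SE 0.09) and by 0.29 in ClpP cKO (SE 0.09), where the call was lost without 5 of the single libraries, and under scaling by own totals these were -0.22 and -0.12. Of other genes that NRF2 induces, Nqo1 (0.16, SE 0.14) and Txnrd1 (-0.06, SE 0.08) were not called in ClpX cKO, and Srxn1 fell there (-0.96, SE 0.19). Eif2ak1, the kinase HRI, which haem inhibits, was not called in ClpX cKO (0.10, SE 0.07).

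**Figure D4:**
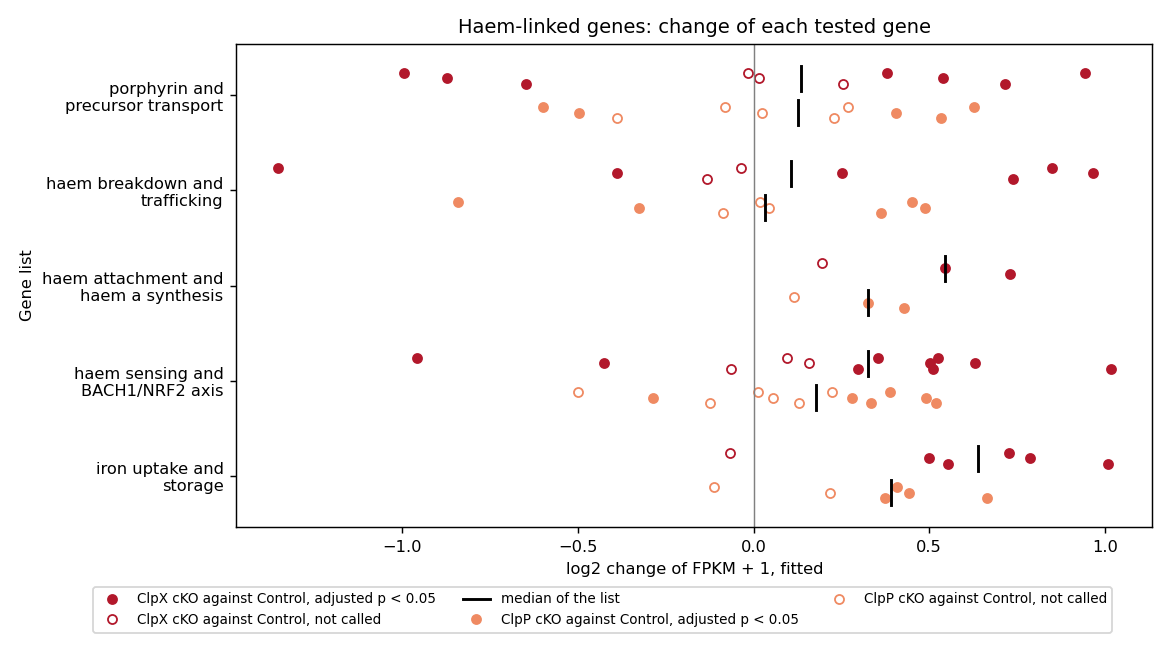
Fitted log2 change of FPKM + 1 (horizontal axis) of each tested gene in 5 lists of haem-linked genes (vertical axis), for ClpX cKO against control and ClpP cKO against control; filled points have an adjusted p under 0.05 and black bars are list medians. The medians run from 0.11 to 0.64 in ClpX cKO and from 0.03 to 0.39 in ClpP cKO, and Hmox2 is the lowest point of both at -1.35 and -0.84.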

How the data were processed

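RNA sequencing covered 3 ClpX cKO, 3 ClpP cKO and 3 control libraries. The authors deposited FPKM per gene, on GRCm38 (mm10) per the submitters' processing notes; the aligner and counter are not given in the sources used here. Gene length in bases, a value of another unit, is per the file headers. Multiplied by this length, 100% of FPKM values were whole steps (tolerance 0.01 of a step), which gave recovered reads. The implied per-million denominator, over the library's own total, differed by group. It was 1.05 to 1.09 in ClpX cKO, 1.04 to 1.05 in ClpP cKO and 0.897 to 0.951 in the controls. Control FPKM thus stood higher, and knockout FPKM lower, than under scaling by own totals. Every change against control differs by this offset from its value under own totals. The median change of all tested genes in ClpX cKO was 0.00 as deposited, -0.01 under median-of-ratios scaling and 0.18 under own totals. In ClpP cKO these medians were 0.01, 0.01 and 0.16.

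Genes whose mean FPKM reached 1 (17266) were fitted as log2(FPKM + 1) in limma 3.58.1 (R 4.3.3), with a trended prior, 1 model for the 9 libraries and 6 residual degrees of freedom. Tests are two-sided with Benjamini-Hochberg adjustment over all tested genes. The fit was tested on simulated reads with few changed genes and no scaling shift between groups, which differs from these data. Tables and plots used Python 3.11.15, pandas 2.3.3, numpy 2.4.6 and matplotlib 3.10.9. All 9 genes passed the filter. FPKM + 1 understates the change of low genes. Counting error only is covered by read numbers.

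Members, lists and tests were chosen with earlier results of these data known. Named from the lists were up to 4 called genes with the smallest adjusted p per list and knockout; Eif2ak1, Ireb2, Slc25a28, Slc25a38, Cox10, Nqo1, Txnrd1 and Srxn1 were chosen after their values were seen. For Alas1 and for members with a called change of at least 0.5 in ClpX cKO, the 3 nearest genes were named. Alternatives were a pseudocount of 0.1, no filter, a mean of at least 5, median-of-ratios, quantile and own-total scaling, fits on the 6 libraries compared, a replicate block, protein-coding genes only, limma voom on recovered reads, and leaving out each library or ClpX cKO 1 with Control 3.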

Additional observations from a re-analysis of the deposited data

How the results depend on the processing

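No member changed sign under any alternative where it was called, and the increases of Alad, Urod, Cpox, Ppox, Fech and Hmox1 in ClpX cKO stayed called in all of those in which they were tested. The 7 haem genes called in ClpX cKO against control were 6 to 7 without each library, and 4 at a mean of at least 5 FPKM, where only 5 were tested. The 2 called in ClpP cKO were 0 to 3 without each library, 0 with no filter, 5 under own-total scaling and 4 without Control 3 and ClpX cKO 1. The 0 called in ClpX cKO against ClpP cKO were 0 to 5 without each library and 6 without Control 3 and ClpX cKO 1. Of haem-linked genes, the 22 called in ClpP cKO were 10 to 23 without each library and 12 with no filter, the 29 in ClpX cKO were 27 to 29 and, at a mean of at least 5 FPKM, 19 of 26 tested, and the 0 in ClpX cKO against ClpP cKO were 0 to 13 and 17 without Control 3 and ClpX cKO 1, where 29.8% of all genes were called (27.6% without ClpX cKO 1 alone, 0.104% with all libraries). Beyond fewer genes tested or fewer samples, the cause was not tested. Same-numbered libraries did not all deviate together (correlations from -0.07 to 0.23; 5 of 6 libraries correlated best with their own number in ClpX cKO against control, 3 of 6 in ClpP cKO against control). With the replicate number as a block the haem gene counts were 7 in ClpX cKO, 2 in ClpP cKO and 0 between the knockouts, and the haem-linked counts were 29, 19 and 0 in that order. Leaving out a library leaves 2 in its group. Cpox and Ppox rest on 100 to 414 reads per library.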
